A study of Mus musculus with 12 samples.

Results

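Oligodendrocyte precursor cells were represented here by 8 genes, Olig1, Olig2, Nkx2-2, Pdgfra, Cspg4, Lhfpl3, Gpr17 and Bcas1, which were taken by gene symbol from a table of 24525 genes. All 8 were found in every library and all 8 passed the filter on low counts. They were measured in RNA-seq of input RNA from neural stem/progenitor cells (NSPCs), grown as neurospheres from E14.5 brains of C57BL/6 mouse embryos and collected at passage P1. There were 3 wild-type and 3 Ythdf2-/- libraries and no treatment was applied to either genotype. The Ythdf2-/- allele lacks exon 1 and came from a LoxP-flanked allele recombined by a ubiquitously active Cre, so every tissue of the embryo lacked the gene, and both genotypes were kept in medium with EGF, bFGF, N2 and B27 without vitamin A. The question was whether loss of Ythdf2, a cytoplasmic reader of m6A in mRNA that promotes mRNA decay, went with a different level of these transcripts.

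Oligodendrocyte precursor cells arise from neural progenitors, divide in response to PDGF-AA through the receptor Pdgfra, and carry the proteoglycan NG2, encoded by Cspg4. Olig1, Olig2 and Nkx2-2 are transcription factors of the lineage, and Olig2 is also present in progenitors that have not committed to it. Cells that leave the dividing precursor state pass through a stage marked by the receptor Gpr17 and by Bcas1 before they make myelin, and Pdgfra and Cspg4 fall along that path. A bulk neurosphere culture mixes such stages, and in bulk RNA fewer cells of a type and less RNA per cell cannot be told apart.

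Of the 6 libraries, 1 wild-type library stood apart in these genes. Wild type replicate 3 had the lowest Olig1, Olig2 and Cspg4 of the 6 libraries and the highest Gpr17, Bcas1, Pdgfra, Nkx2-2 and Lhfpl3, with Gpr17 at 690 CPM (read counts scaled to a common library size) against 14.3 to 142 in the other 5 and Bcas1 at 603 CPM against 17.5 to 44.9. Being at an extreme there was common: 34.5% of all genes tested were lowest in that library, close to the 3 of 8 members, and 33.8% were highest, against 5 of 8. By the quasi-likelihood test of edgeR, none of the 8 genes passed an adjusted p of 0.05 between genotypes, and neither did any of the 13112 genes tested. Olig1 and Cspg4 lay higher, and Bcas1 and Nkx2-2 lower, in Ythdf2-/- without overlap of the groups, whether or not wild type replicate 3 was included. For Olig1 the gap was only 0.235 CPM, against 13.5 CPM for Cspg4. Of all genes tested, 5.26% were higher and 4.92% lower without overlap with 6 libraries, and 18.8% and 20.1% without wild type replicate 3, so that 2 of 8 lower is then near the background.

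Sequence just upstream of the start is shown for Olig2 and Cspg4, which were lowest in wild type replicate 3, and for Lhfpl3, which was highest there, so that the letters can be read beside their values. RefSeq promoter entries (build GRCm38.p6) were found for 5 of the 8 genes, Olig2, Pdgfra, Cspg4, Nkx2-2 and Lhfpl3. Each sequence is the 250 bases before the annotated start, read 5′ to 3′ on the plus strand, which is the strand of all 3 genes. Capitals mark matches to 4 short motifs, searched on both strands. One is TATAAA, the letters of the TATA box, marked at any position in the window. Another is an E-box, a class of site bound by basic helix-loop-helix factors, spelled CAGCTG. The others are the core of SOX sites, spelled ACAAT, and the GC box, spelled GGGCGG, and where these lie on the reverse strand the capitals show the reverse complement.
Olig2, chr16:91225300-91225549: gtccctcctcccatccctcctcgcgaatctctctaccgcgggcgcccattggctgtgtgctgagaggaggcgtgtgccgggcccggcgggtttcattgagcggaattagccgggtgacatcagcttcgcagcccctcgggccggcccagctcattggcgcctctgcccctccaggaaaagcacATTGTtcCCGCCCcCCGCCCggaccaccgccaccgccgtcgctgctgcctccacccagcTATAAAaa
Cspg4, chr9:56864854-56865103: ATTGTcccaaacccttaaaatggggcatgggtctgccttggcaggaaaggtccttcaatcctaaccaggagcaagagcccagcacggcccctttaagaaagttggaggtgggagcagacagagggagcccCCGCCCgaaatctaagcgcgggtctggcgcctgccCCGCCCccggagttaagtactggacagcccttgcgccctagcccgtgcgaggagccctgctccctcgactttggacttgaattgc
Lhfpl3, chr5:22745804-22746053: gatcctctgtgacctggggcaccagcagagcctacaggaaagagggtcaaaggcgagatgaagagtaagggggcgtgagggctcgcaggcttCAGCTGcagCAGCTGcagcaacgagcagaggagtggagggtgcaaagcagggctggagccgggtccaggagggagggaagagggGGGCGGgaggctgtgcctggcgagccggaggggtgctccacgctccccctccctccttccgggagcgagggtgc
The Olig2 stretch held the TATAAA match 8 to 3 bases before the start, a reverse-strand ACAAT at 67 to 63 and reverse-strand GGGCGG at 60 to 55 and 53 to 48. The Cspg4 stretch held ACAAT at 250 to 246 and GGGCGG at 120 to 115 and 85 to 80, all on the reverse strand. The Lhfpl3 stretch held CAGCTG at 158 to 153 and 149 to 144 and GGGCGG at 74 to 69, with no TATAAA or ACAAT. Nkx2-2 and Pdgfra, not shown, were also highest in wild type replicate 3. Nkx2-2 held ACAAT at 229 to 225 and reverse-strand GGGCGG at 180 to 175, and Pdgfra held none of the 4 motifs. Over 32851 promoter windows of the same 250 bases, TATAAA occurred in 12.4%, CAGCTG in 13%, ACAAT in 27.7% and GGGCGG in 32.7%, so the GC box that the 3 stretches shown share is common. GC content was 66.8% for Olig2, 60.4% for Cspg4 and 67.2% for Lhfpl3, against a median of 52.4% over all windows. These matches are descriptions of letters, and binding was not measured.

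The libraries held 11029827 to 13185778 counted reads, with 16327 to 16593 genes having at least 1 read, and the 8 genes had between 38 and 15535 reads each in a library. CPM below are scaled by TMM, a normalization that sets libraries to a common level over most genes. Ythdf2 itself was at 71.8, 73.3 and 91.3 CPM in wild type and at 11.7, 14.6 and 11.1 CPM in Ythdf2-/-, a log2 fold change of -2.66 (SE 0.183, edgeR adjusted p = 0.0547), which became -2.54 (edgeR adjusted p = 0.0203) without wild type replicate 3. That library stood apart over the whole transcriptome: its mean Spearman correlation across genes with the other libraries was 0.8997 against 0.9616 to 0.9698 for the rest, and the first principal component, 67.7% of the variance, separated it. Replicates were numbered samples of a genotype and the labels do not say that each came from its own embryo, so p-values measure only the spread between these samples.

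**Figure D1:**
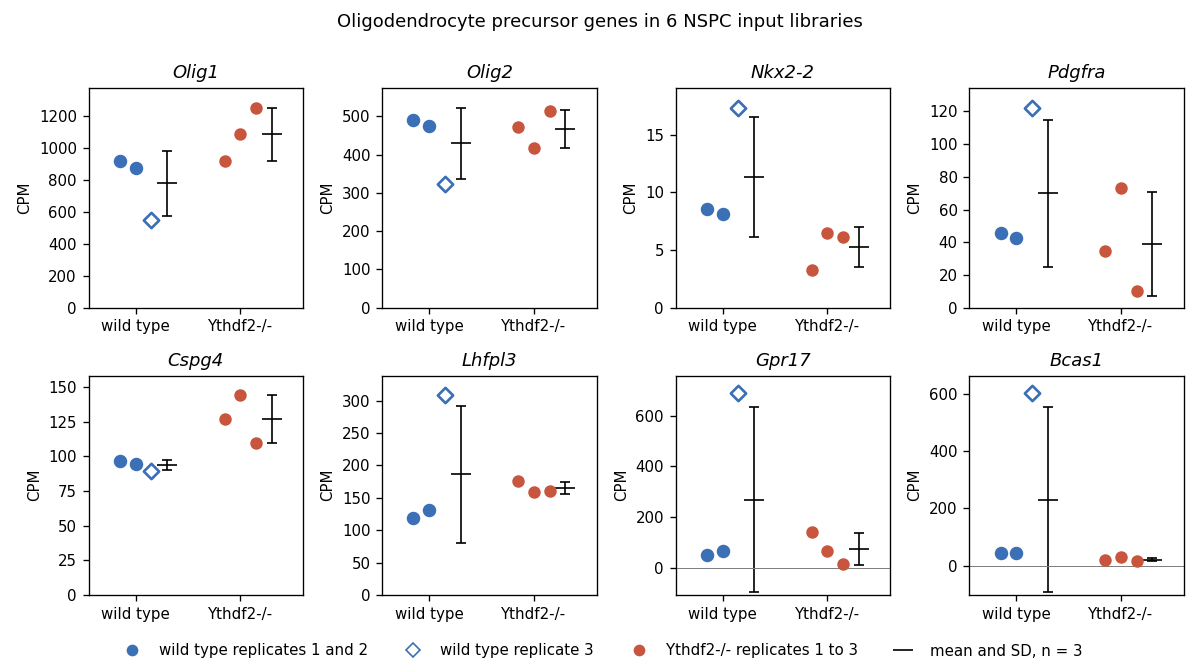
CPM of the 8 genes (y axis, linear, 1 panel a gene) in wild type and Ythdf2-/- libraries (x axis); filled blue circles are wild type replicates 1 and 2, the open diamond is wild type replicate 3, red circles are the 3 Ythdf2-/- libraries, and the black marks are the mean and SD of each genotype (n = 3). The diamond is the lowest point for Olig1, Olig2 and Cspg4 and the highest for the other 5 genes, reaching 690 CPM for Gpr17 and 603 CPM for Bcas1.

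Of the transcription factors, Olig1 and Olig2, basic helix-loop-helix neighbours 41091 bases apart on chromosome 16 (GRCm38; Olig1 at 91269769 to 91271939 and Olig2 at 91225550 to 91228677, plus strand), were the most abundant members per length on average over the 6 libraries, though in wild type replicate 3 Bcas1 and Gpr17 had more CPM than either. Olig1 was at 917, 874 and 546 CPM in wild type replicates 1 to 3 and at 917, 1088 and 1249 CPM in the 3 Ythdf2-/- libraries. Wild type replicate 3 was the lowest, and the groups were separated by only 0.235 CPM, between wild type replicate 1 and Ythdf2-/- replicate 1. The means were 779 ± 203 and 1084 ± 166 CPM (SD, n = 3 each), and the log2 fold change of 0.48 (SE 0.255, 95% interval -0.14 to 1.09) had an unadjusted p of 0.108 and an adjusted p of 0.999 in edgeR, and without wild type replicate 3 it was 0.28 (SE 0.169, 95% interval -0.13 to 0.69).

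Olig2, the factor required to specify the lineage, was at 490, 474 and 323 CPM in wild type and at 471, 416 and 513 CPM in Ythdf2-/-. The groups overlapped, and only wild type replicate 3 fell outside the span of 416 to 513 CPM that the other 5 libraries occupied. The log2 fold change was 0.12 (SE 0.206, 95% interval -0.38 to 0.62) with all libraries and -0.05 (SE 0.131, 95% interval -0.36 to 0.27) without wild type replicate 3, where the wild-type mean was 482 ± 11.5 CPM (SD, n = 2).

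Nkx2-2, a homeodomain factor that acts with the Olig factors in oligodendrocyte differentiation (chromosome 2, 147176485 to 147195434, minus strand), was the least abundant member per length on average, though Pdgfra and Gpr17 were below it in Ythdf2-/- replicate 3. It was at 8.55, 8.08 and 17.3 CPM in wild type and at 3.24, 6.44 and 6.11 CPM in Ythdf2-/-. Every Ythdf2-/- library was below every wild-type library, by 1.65 CPM at the closest, and wild type replicate 3 was 2.02 times the next highest library. The log2 fold change was -1.10 (SE 0.423, 95% interval -2.12 to -0.08, unadjusted p = 0.0391, adjusted p = 0.999 in edgeR) and -0.66 (SE 0.322, 95% interval -1.44 to 0.13, unadjusted p = 0.0866, adjusted p = 0.358 in edgeR) without wild type replicate 3.

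Among the surface proteins, Pdgfra, the PDGF-AA receptor on which precursor division depends (chromosome 5, 75151322 to 75198206, plus strand), varied widely within both genotypes. It was at 45.7, 42.5 and 122 CPM in wild type and at 34.4, 72.9 and 9.97 CPM in Ythdf2-/-. The groups overlapped, and the highest Ythdf2-/- library was 7.31 times the lowest, against a ratio of 1.08 between wild type replicates 1 and 2. The 95% interval of the log2 fold change ran from -2.65 to 0.97 around -0.84, and from -1.87 to 1.53 around -0.17 without wild type replicate 3, so no difference passed the test at this spread. With a term for Y-linked reads (embryo sex) the value was -1.64 (SE 0.379, unadjusted p = 0.00529, adjusted p = 0.277 in edgeR). Among wild-type libraries only replicate 3 lacked such reads, so there the term cannot be told apart from that library. Single Ythdf2-/- libraries also moved the value, to -1.64 without replicate 2 and to -0.38 without replicate 3.

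Cspg4, the NG2 proteoglycan of precursor cells, also made by pericytes (chromosome 9, 56865104 to 56899870, plus strand), was the steadiest member in wild type. It was at 96.7, 94.8 and 89.7 CPM in wild type and at 127, 144 and 110 CPM in Ythdf2-/-. All 3 Ythdf2-/- libraries were higher than all 3 wild-type libraries, by at least 13.5 CPM, and wild type replicate 3 was close to its fellows. The log2 fold change was 0.44 (SE 0.138, 95% interval 0.11 to 0.77, unadjusted p = 0.0176, adjusted p = 0.999 in edgeR) and 0.41 (SE 0.132, 95% interval 0.09 to 0.73, adjusted p = 0.235 in edgeR) without wild type replicate 3. With limma-voom and sample quality weights, which gave wild type replicate 3 a weight of 0.0901, the log2 fold change was 0.39 at an adjusted p of 0.0451, the one call made on any member by any test run, against edgeR, DESeq2 and unweighted limma-voom, which made none.

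Pericytes share Cspg4 with the precursors, and whether they contributed to its level was not tested. Of 11 pericyte and mesenchymal markers, 5 (Kcnj8, Anpep, Col1a2, Col3a1 and Lum) had at most 3 reads in any library and only 3 passed the filter. Pdgfrb, the PDGF receptor of pericytes, was at 0.770, 1.30 and 31.7 CPM in wild type and 3.49, 0.148 and 2.33 CPM in Ythdf2-/-. The summed level of the 11 markers was 77.9, 82.2 and 192 CPM in wild type and 101, 132 and 106 CPM in Ythdf2-/-. It was mostly Notch3, which neural progenitors can also express, at 74.6, 78.5 and 156 CPM in wild type and 96.1, 130 and 102 CPM in Ythdf2-/-. Notch3 had a log2 fold change of 0.08, and 0.51 without wild type replicate 3 (unadjusted p = 0.0133, adjusted p = 0.219 in edgeR). It was then higher without overlap (18.8% of all genes), the direction of Cspg4. Of the 3 tested, 2 were then above 0 and 1 below.

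Lhfpl3, a tetraspan-like membrane protein used as a precursor marker in single-cell atlases (chromosome 5, 22746054 to 23275597, plus strand), had a fold change whose sign depended on 1 library. It was at 119, 131 and 308 CPM in wild type and at 176, 159 and 161 CPM in Ythdf2-/-. The Ythdf2-/- libraries were tightly grouped, above wild type replicates 1 and 2 by at least 28.5 CPM and below wild type replicate 3. The log2 fold change was -0.17 (SE 0.377, 95% interval -1.08 to 0.75) with 6 libraries and 0.41 (SE 0.100, 95% interval 0.17 to 0.65, unadjusted p = 0.00595, adjusted p = 0.187 in edgeR) without wild type replicate 3.

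Gpr17, a G protein-coupled receptor of committed precursors (chromosome 18, 31942999 to 31949890, minus strand), had the widest span of the 8, 48.2-fold from the lowest to the highest library. It was at 48.1, 64.4 and 690 CPM in wild type and at 142, 65.6 and 14.3 CPM in Ythdf2-/-. The groups overlapped, wild type replicate 3 was 4.85 times the next highest library, and the Ythdf2-/- libraries themselves spanned a ratio of 9.95. The log2 fold change was -1.85 (SE 1.25, 95% interval -4.87 to 1.16) and turned to 0.40 (SE 0.810, 95% interval -1.58 to 2.37) without wild type replicate 3.

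Bcas1, a protein of oligodendrocytes that are about to myelinate (chromosome 2, 170343973 to 170427911, minus strand), was at 43.4, 44.9 and 603 CPM in wild type and at 18.7, 29.1 and 17.5 CPM in Ythdf2-/-. Wild type replicate 3 was 13.4 times the next highest library, yet the other 2 wild-type libraries were also above every Ythdf2-/- library, by at least 14.4 CPM. The log2 fold change was -3.41 (SE 1.14, 95% interval -6.17 to -0.64, unadjusted p = 0.0233, adjusted p = 0.999 in edgeR). Without wild type replicate 3 it was -1.02 (SE 0.228, 95% interval -1.57 to -0.47, unadjusted p = 0.00389, adjusted p = 0.174 in edgeR), with means of 44.2 ± 1.04 CPM in wild type (SD, n = 2) and 21.7 ± 6.36 CPM in Ythdf2-/- (SD, n = 3).

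**Figure D2:**
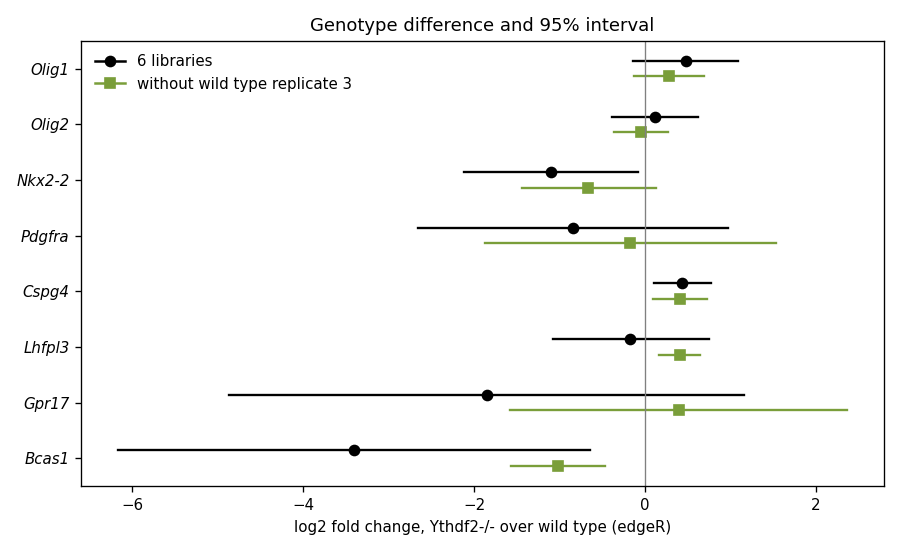
Log2 fold change of Ythdf2-/- over wild type from edgeR (x axis) for the 8 genes (y axis), with 95% intervals as lines; black circles use all 6 libraries and green squares leave out wild type replicate 3. The intervals of Cspg4 (0.11 to 0.77 and 0.09 to 0.73) and of Bcas1 (-6.17 to -0.64 and -1.57 to -0.47) lie on 1 side of 0 in both fits, and the points of Olig2, Lhfpl3 and Gpr17 cross 0.

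Counted over the 8 genes, edgeR called 0 with 6 libraries (0% of 13112 genes were called) and 0 without wild type replicate 3 (0.0151% of 13283 genes). DESeq2, which gave no p for Bcas1, called 0 of the other 7 while calling 0.236% of all genes, limma-voom called 0 members and 0% of all genes, and limma-voom with quality weights called 1 member, Cspg4, and 4.82% of all genes. At an unadjusted p under 0.05, edgeR counted 3 of the 8 (Cspg4, Nkx2-2 and Bcas1) against 3.63% of all genes, and without wild type replicate 3 again 3 (Cspg4, Bcas1 and Lhfpl3) against 16.6% of all genes. With 8 genes chosen as a group of known function, these shares describe them and carry no test of their own.

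Groups did not overlap for 2 members that were higher in Ythdf2-/-, Cspg4 and, by only 0.235 CPM, Olig1 (5.26% of all genes). They also did not overlap for 2 that were lower, Nkx2-2 and Bcas1 (4.92% of all genes). Without wild type replicate 3, 3 were higher (Olig1, Cspg4 and Lhfpl3; 18.8% of all genes) and 2 lower (Nkx2-2 and Bcas1; 20.1% of all genes). A log2 fold change at or below -1 was found for Nkx2-2, Gpr17 and Bcas1 with all libraries (2.78% of all genes) and for Bcas1 alone without wild type replicate 3 (1.66% of all genes). The median log2 fold change of the 8 was -0.50 against -0.011 for all genes tested, and 0.12 against 0.014 without wild type replicate 3. An exact two-sided permutation test on a single gene can go no lower than p = 0.1 with 3 against 3 libraries and 0.2 with 2 against 3, so separation of the groups cannot by itself pass 0.05.

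The size of the shift in wild type replicate 3 differed by gene. Against the median of the other 5 libraries, its CPM was 0.596-fold for Olig1, 0.683-fold for Olig2 and 0.814-fold for Cspg4. It was 1.94-fold for Lhfpl3, 2.68-fold for Nkx2-2, 2.87-fold for Pdgfra, 10.7-fold for Gpr17 and 20.8-fold for Bcas1. Gpr17 and Bcas1, both markers of the committed stage, were the 2 members over 4 times the highest of the other 5 libraries, as were 0.923% of all genes tested. The label of this library is that of an untreated wild-type culture like the others, and what sets it apart was not tested.

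Levels were compared between genes as RPKM, here TMM-scaled CPM divided by the gene length in kilobases. Over the 5 libraries other than wild type replicate 3, Olig1 was at 465 ± 72.5, Olig2 at 194 ± 14.7 and Lhfpl3 at 50.8 ± 8.10 RPKM (SD, n = 5), and these 3 did not overlap with each other or with any lower member in those libraries. Cspg4 at 14.2 ± 2.61, Gpr17 at 12.9 ± 9.04, Bcas1 at 10.2 ± 4.33, Pdgfra at 6.27 ± 3.45 and Nkx2-2 at 4.09 ± 1.32 RPKM (SD, n = 5) followed, and neighbours in this lower run did not differ beyond their spread.

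In wild type replicate 3 the order became Olig1 at 252, Bcas1 at 200, Gpr17 and Olig2 both at 133, Lhfpl3 at 105, Pdgfra at 18.6, Cspg4 at 11.1 and Nkx2-2 at 10.9 RPKM. Bcas1 and Gpr17 thus stood above Lhfpl3 there, whereas in each of the other 5 libraries both were below it. Averaged over all 6 libraries, Olig1 lay at percentile 99.0 and Olig2 at 97.5 of mean RPKM among genes tested, while Cspg4 lay at 56.6, Pdgfra at 42.4 and Nkx2-2 at 31.3.

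**Figure D3:**
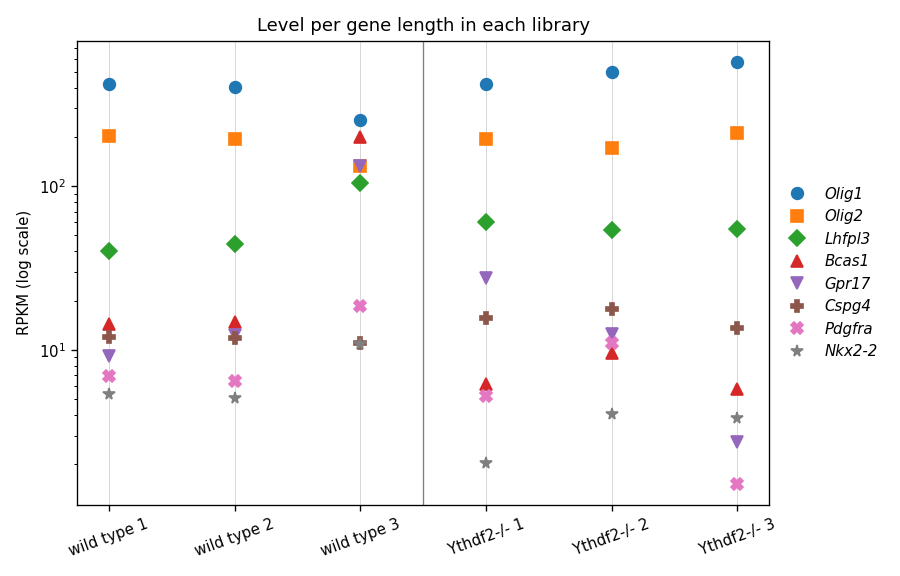
RPKM (y axis, log scale) of the 8 genes, 1 symbol a gene, in each of the 6 libraries (x axis), with wild type left of the grey line and Ythdf2-/- right of it. Olig1, Olig2 and Lhfpl3 lie above the rest in every library but wild type replicate 3, where Bcas1 at 200 and Gpr17 at 133 RPKM reach the Olig genes; Pdgfra and Gpr17 are lowest in Ythdf2-/- replicate 3, at 1.52 and 2.76 RPKM.

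Ratios of 2 members within a library do not depend on its scaling. Olig1 to Olig2 was the most constant of the ratios taken, at 2.10, 2.07 and 1.90 in wild type and 2.19, 2.93 and 2.73 in Ythdf2-/-, per length. Bcas1 to Olig2 was 0.0715, 0.0765 and 1.51 in wild type and 0.0320, 0.0563 and 0.0275 in Ythdf2-/-, so that wild type replicate 3 was highest and the 3 Ythdf2-/- libraries were below all wild-type libraries. Gpr17 to Olig2 was 0.0460, 0.0638 and 1.0 in wild type and 0.142, 0.0740 and 0.0131 in Ythdf2-/-, where wild type replicates 1 and 2 lay between Ythdf2-/- libraries.

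Bcas1 to Gpr17, both markers of committed precursors, was close in the 3 wild-type libraries, at 1.55, 1.2 and 1.5, although their levels in wild type replicate 3 were far from the other 2. In Ythdf2-/- the same ratio was 0.225, 0.762 and 2.11 and spanned 9.34-fold. Pdgfra to Cspg4, both surface proteins of dividing precursors, was 0.581, 0.550 and 1.67 in wild type and 0.334, 0.619 and 0.111 in Ythdf2-/-. The members thus did not keep fixed proportions among the Ythdf2-/- cultures: replicate 1 was highest in Gpr17, replicate 2 in Pdgfra, and replicate 3 lowest in both.

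Other genes of the lineage were set beside the members from lists of known markers. Of 16 further transcription factors of precursor cells, 13 were tested and edgeR called 0 in either direction, as did DESeq2 and limma-voom, with 2 at an unadjusted edgeR p under 0.05; for this list and the lists that follow, 3.63% of all genes were under that p with 6 libraries. With quality weights, limma-voom called Sox5 and Sox8, both higher in Ythdf2-/-. By edgeR 4 had a log2 fold change above 0 and 9 below, with a median of -0.37 that became 0.42 without wild type replicate 3. Their 3 most abundant were Sox6, Sox8 and Sox9, SOX factors of the glial lineage. Sox8 was at 171, 180 and 268 CPM in wild type and 321, 308 and 226 CPM in Ythdf2-/-, with overlap that came from wild type replicate 3 alone. Without that library its log2 fold change was 0.70 (unadjusted p = 0.00587, adjusted p = 0.187 in edgeR). Of the 13, 5 were then higher without overlap (18.8% of all genes) and 0 lower (20.1%). An unadjusted edgeR p under 0.05 was then found for 4 (16.6% of all genes). Sox10, the defining SOX factor of the committed lineage, was at 3.93, 2.06 and 122 CPM in wild type and 3.15, 2.88 and 0.563 CPM in Ythdf2-/-, from 7 to 46 reads in every library but wild type replicate 3, while Olig1 and Olig2 were abundant in all 6. Sox10, the genes named for a call with quality weights, and C1ql1, Enpp6, Slc1a2, Pax6, Msi1 and Hes1 were singled out after their values were seen.

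PDGF ligands, which drive precursor division through Pdgfra, were low: Pdgfa was at 9.75, 9.38 and 20.1 CPM in wild type and 8.52, 12.3 and 8.36 CPM in Ythdf2-/-, and Pdgfc between 9.14 and 13.5 CPM in all 6. Of the 5 genes of this list, 4 were tested and 0 were called by any of these tests, nor was any at an unadjusted edgeR p under 0.05. Of 19 surface and matrix genes of precursors, 17 were tested and edgeR, DESeq2 and limma-voom called 0 (2 at an unadjusted edgeR p under 0.05), while limma-voom with quality weights called Bcan, Cacng4 and Ncan, all higher in Ythdf2-/-. By edgeR the list had 8 above and 9 below 0 and a median of -0.01. Without wild type replicate 3 the median was 0.36, with 15 above and 3 below. Then 7 of the 18 tested had an unadjusted edgeR p under 0.05 (16.6% of all genes). Of these 18, 7 were higher without overlap (18.8% of all genes) and 1 lower (20.1%), and 0 were called. The most abundant were Ptprz1, Bcan and Ncan, a receptor phosphatase and 2 brain proteoglycans like Cspg4. Ncan was at 835, 845 and 718 CPM in wild type and 1147, 1026 and 1551 CPM in Ythdf2-/-, without overlap and with wild type replicate 3 lowest, as for Cspg4, at a log2 fold change of 0.63 (unadjusted p = 0.0233, adjusted p = 0.999 in edgeR). C1ql1, a secreted C1q-like protein, was the other tested gene of this list without overlap with 6 libraries and lay the other way, at 9.41, 9.07 and 92.7 CPM in wild type and 3.32, 3.03 and 1.04 CPM in Ythdf2-/- (log2 fold change -3.90, unadjusted p = 0.0122, adjusted p = 0.999 in edgeR). Without wild type replicate 3 the log2 fold change was 0.56 for Ncan (unadjusted p = 0.0327, adjusted p = 0.263 in edgeR). For C1ql1 it was then -1.90 (unadjusted p = 0.00467, adjusted p = 0.178 in edgeR).

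Of 10 genes of committed precursors, the stage of Gpr17 and Bcas1, 9 were tested and edgeR, DESeq2 and limma-voom called 0 (1 at an unadjusted edgeR p under 0.05), with 1 above and 8 below 0 by edgeR (median -0.41, and 0.13 without wild type replicate 3). Their summed level was 964, 1026 and 3451 CPM in wild type and 1051, 995 and 1073 CPM in Ythdf2-/-, high in wild type replicate 3, and it was mostly Fyn, Sirt2 and Tns3. Enpp6, the gene under an unadjusted p of 0.05 with 6 libraries, was at 1.97, 4.04 and 336 CPM in wild type and 1.28, 0.444 and 0.161 CPM in Ythdf2-/-, without overlap, whereas Kif19a had a log2 fold change of 1.02 with 6 libraries and 1.6 without wild type replicate 3. Of 13 myelin genes, 9 were tested and the same 3 tests called 0 (4 at an unadjusted edgeR p under 0.05), 2 above and 7 below 0 by edgeR (median -2.24, and -0.24 without wild type replicate 3). With quality weights 1 gene of each list was called, Kif19a and Mal, both higher in Ythdf2-/-. Mbp, myelin basic protein, was at 6.67, 8.84 and 572 CPM in wild type and 4.94, 4.29 and 1.21 CPM in Ythdf2-/-. For Mbp, as for Bcas1, wild type replicate 3 was far above, and all Ythdf2-/- libraries below, wild type replicates 1 and 2. Cnp, a more abundant myelin enzyme, was at 133, 157 and 775 CPM in wild type and 237, 391 and 99.0 CPM in Ythdf2-/-, so that the groups overlapped with or without wild type replicate 3. Without that library the list had 4 above and 5 below 0. Then 1 of the 9 tested myelin genes had an unadjusted edgeR p under 0.05, as did 2 of the 9 tested committed precursor genes (16.6% of all genes).

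**Figure D4:**
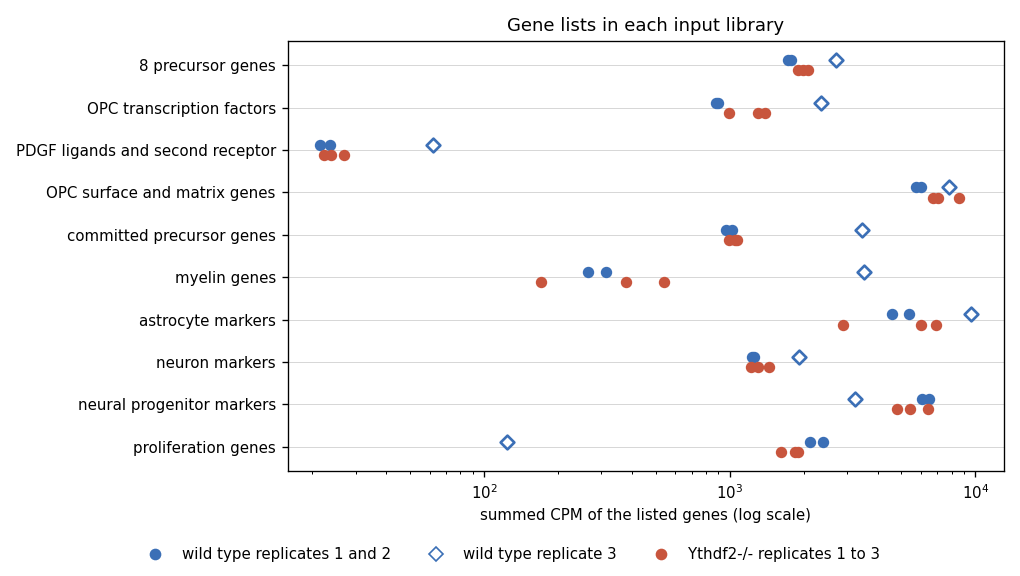
Summed CPM (x axis, log scale) of the 8 genes and of 9 gene lists (y axis) in each library; blue circles are wild type replicates 1 and 2, the open diamond is wild type replicate 3 and red circles are the 3 Ythdf2-/- libraries. The diamond lies far right for myelin genes (3511 CPM against 170 to 541 in the others) and far left for proliferation genes (124 CPM against 1618 to 2393).

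Markers of other states moved with wild type replicate 3. The 6 proliferation genes were all lowest there, with a summed level of 124 CPM against 1618 to 2393 CPM in the other 5 libraries, and Mki67, a marker of cycling cells, was at 9.96 CPM against 554 to 697 CPM. Outside that library their sum was 2129 to 2393 CPM in wild type and 1618 to 1903 CPM in Ythdf2-/-, with all 6 log2 fold changes below 0 (median -0.46), 4 of the 6 lower without overlap (20.1% of all genes), 3 at an unadjusted edgeR p under 0.05 (16.6% of all genes) and 0 called. The 7 neural progenitor markers, which check the labelled cell type, were present in all 6 libraries, and they did not move together: 4 of them (Sox2, Pax6, Msi1 and Hes1) were highest in wild type replicate 3, with Sox2 at 550 CPM against 316 to 426 CPM, and the other 3 (Vim, Fabp7 and Nes) were lowest there. Their sum, which these 3 abundant genes dominate, was 3227 CPM in wild type replicate 3 against 4776 to 6472 CPM elsewhere, and the intermediate filament Nes was at 264 CPM there against 724 to 1211 CPM. The 9 astrocyte markers summed to 9620 CPM there against 2880 to 6924 CPM, and the 7 neuron markers to 1908 against 1226 to 1442 CPM. Neither list moved as 1: 4 of the 9 astrocyte markers and 4 of the 7 neuron markers were highest in wild type replicate 3, while Slc1a3 was at 0.733 and Slc1a2 at 0.857 of the median of the other 5 libraries, and Gap43 was at 0.367 of it where Dcx was at 31.4 times it. The part of these differences in the members' values was not tested.

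Between genotypes, the astrocyte filament Gfap was at 436, 624 and 3041 CPM in wild type and 127, 87.7 and 5.55 CPM in Ythdf2-/-, every wild-type library above every Ythdf2-/- library as for Bcas1, without a call (log2 fold change -4.22, unadjusted p = 0.0166, adjusted p = 0.999 in edgeR). Without wild type replicate 3 its log2 fold change was -2.85 (unadjusted p = 0.0289, adjusted p = 0.254 in edgeR). The other markers of the list, among them Slc1a3 at 1869 to 2550 CPM in wild type and 1406 to 3739 CPM in Ythdf2-/-, overlapped. Of 9 microglia markers, 6 had at most 3 reads in any library, and the sum was 3.51 to 4.75 CPM in wild type and 3.11 to 3.78 CPM in Ythdf2-/-. Of 6 endothelial markers, Cdh5 and Cldn5 had at most 3 reads in any library and the sum was 1.01 to 3.51 CPM in wild type and 1.41 to 2.39 CPM in Ythdf2-/-, so the defining markers of both cell types were at or near 0. Over the lists of proliferation, progenitor, astrocyte, neuron, pericyte, microglia and endothelial genes, edgeR called 0 with or without wild type replicate 3, as did DESeq2 and limma-voom with 6 libraries, and 3 genes had an unadjusted edgeR p under 0.05 with 6 libraries. Limma-voom with quality weights called Msi1 higher and Stmn2 and Rgs5 lower in Ythdf2-/-.

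The genes outside the 8 whose profile over the 6 libraries was nearest to the members' mean profile were Lsp1, Arhgef17, Rnf19b, Rtn4 and Ppp1r15a, at root mean square differences of 0.0310, 0.0683, 0.0870, 0.0914 and 0.0921 in centred log2 CPM. Rtn4, for example, was at 338, 341 and 773 CPM in wild type and 320, 402 and 264 CPM in Ythdf2-/-. The 8 members lay farther from their own mean, from 0.354 for Lhfpl3 to 1.21 for Bcas1.

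Ythdf2 binds m6A, which is often found in the letters GGACT, so the density of GGACT was counted in the longest coding transcript of each member (GENCODE M21). It ran from 0.321 per kilobase in Lhfpl3 and 0.463 in Olig1 through 0.791 in Olig2, 0.862 in Cspg4, 0.943 in Nkx2-2, 0.962 in Gpr17 and 1.02 in Bcas1 to 1.17 in Pdgfra. The median over 12288 genes tested was 1.04 per kilobase, so 7 of the 8 were below it. m6A itself was not analysed here.

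Some reads may belong to neighbours. Exons of Gpr17, Bcas1, Nkx2-2 and Lhfpl3 overlap a gene on the opposite strand by 188, 34, 278 and 572 bases, and whether the counting used strand is not stated. Of these partners, Lims2 had 33, 72 and 466 reads in wild type and 124, 105 and 28 in Ythdf2-/-, against 562, 845 and 7555 and 1671, 887 and 178 for Gpr17. Nkx2-2os had 3, 8 and 23 reads in wild type and 6, 8 and 12 in Ythdf2-/-, against 100, 106 and 189 and 38, 87 and 76 for Nkx2-2. Bcas1os2 had 0 to 69 reads in a library and A930003O13Rik 11 to 40, against 218 to 6603 for Bcas1 and 1387 to 3369 for Lhfpl3.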

How the data were processed

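Input RNA-seq libraries, 3 wild-type and 3 Ythdf2-/-, were grouped by their labels. Per the study's methods, mRNA was sonicated, prepared with a strand-specific kit and aligned to mm10 with TopHat. The submitters' processing notes name Bowtie2 2.2.9, RSEM 1.2.15 and featureCounts. The authors deposited raw counts, whole reads per gene without normalization. The authors also deposited gene tables with expected counts, reads apportioned among transcripts by RSEM, which sum to 1.97% to 2.40% of the raw counts. Whether counting used strand is not given in the sources used here. The FPKM and TPM columns were not used, and the 6 m6A-IP libraries were not analysed here.

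Raw counts were tested with edgeR 4.0.16 in R 4.3.3 (filterByExpr, TMM, glmQLFit with the robust option, glmQLFTest) with genotype as the only term, on the whole table of 13112 genes, and p-values were adjusted by Benjamini-Hochberg over all of them. Intervals are 95%. DESeq2 1.42.0, limma-voom and limma-voom with quality weights (limma 3.58.1), other normalizations and filters, the rounded expected counts, a term for Y-linked reads and leaving out each library were alternatives. The edgeR step was checked on simulated counts in which no library stood apart. That check does not cover data with a library like wild type replicate 3. RPKM used the gene lengths of the deposited tables. Sequences came from RefSeq and GENCODE M21, positions are on GRCm38, and Python 3.11.15 with numpy 2.4.6 and pandas 2.3.3 was used.

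The 8 genes and the 12 lists of other markers were chosen with earlier results of these data known. Named by rule were the 8 genes, Ythdf2, up to 3 members of each list by mean CPM or any called by edgeR, and the 5 genes nearest in profile. Of the genes this rule names, 1 is left out and not reported here. The labels do not say that the replicate numbers pair the samples. Same-numbered libraries of the genotypes did not deviate together (correlations -0.248, -0.244 and -0.394). Deviations were taken from each genotype's mean, which wild type replicate 3 shifts, so these values cannot decide whether the numbers pair the samples. Depth limits the precision of low genes, and the lowest member count was 38 reads.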

Additional observations from a re-analysis of the deposited data

How the results depend on the processing

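Of 123 values of the 8 genes under the alternatives, 115 kept their direction and their side of the threshold. Without the limma-voom quality weights, 0 of the 8 were called in any alternative, and with them 1 was, Cspg4 (log2 fold change 0.39, adjusted p = 0.0451 in limma). With quality weights Olig2 was at -0.01, Gpr17 at 0.47 and Lhfpl3 at 0.43, each of the opposite sign to the edgeR fit. From the expected counts, where only Olig1, Olig2 and Gpr17 could be fitted, Gpr17 was at 0.59. Leaving out 1 library at a time moved Olig2 between -0.05 and 0.23, Gpr17 between -2.72 and 0.40 and Lhfpl3 between -0.40 and 0.41, and in each case it was leaving out wild type replicate 3 that turned the sign. The other ranges were 0.28 to 0.61 for Olig1, -1.64 to -0.17 for Pdgfra, 0.35 to 0.53 for Cspg4, -1.29 to -0.66 for Nkx2-2 and -3.89 to -1.02 for Bcas1. The median of the 8 ran from -0.74 to 0.12 over these fits. A term for Y-linked reads (embryo sex), present in wild type replicates 1 and 2 and Ythdf2-/- replicate 3, gave Gpr17 -2.37 (SE 0.361, unadjusted p = 0.000689, adjusted p = 0.159 in edgeR) and Pdgfra -1.64 (SE 0.379, unadjusted p = 0.00529, adjusted p = 0.277 in edgeR). Under it 6 of the 8 (Olig1, Pdgfra, Cspg4, Nkx2-2, Gpr17 and Bcas1) had an unadjusted edgeR p under 0.05, against 11% of all genes, and 0 were called. The labels give no sex. Among wild-type libraries only replicate 3 lacked Y-linked reads, so there the term cannot be told apart from that library. DESeq2 gave no p for Bcas1.

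With the replicate number as a replicate block, a pairing that the labels do not state, the log2 fold changes were 0.50 for Olig1, 0.14 for Olig2, -0.95 for Pdgfra, 0.43 for Cspg4, -1.08 for Nkx2-2, -0.76 for Gpr17, -2.13 for Bcas1 and -0.02 for Lhfpl3, with 0 called.

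The causes of these shifts were not tested. With 3 libraries a genotype, of which 1 stands apart, the biological coefficient of variation was 0.332 with all libraries and 0.181 without wild type replicate 3.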
